A study of Mus musculus with 12 samples.

Results

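A set of 7 genes of antigen presentation by MHC class I was followed in mouse colonic myofibroblasts labelled as lacking the tumor necrosis factor receptor TNFR1. They are the heavy chains H2-K1, H2-D1, H2-T23, H2-M3 and H2-Q4, their shared light chain B2m, and the transactivator Nlrc5. They were taken by symbol from the table of expected counts, where they are 7 of 24411 gene symbols, and all 7 passed the low-count filter that kept 12146 genes for testing. The set was selected on measured values, namely lower counts in the knockout than in the control libraries of this table, so the knockout and control levels of the members are given as a description, without a test.

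The cells were primary myofibroblasts, contractile mesenchymal cells that were cultured from distal colon tissue (C57BL/6 mice, 16 weeks old) and used at passage 6 to 8. The knockout group (TNFR1-/-, 6 libraries) is labelled as lacking both copies of the receptor gene, and the control group (TNFR1+/-, 6 libraries) as heterozygous, so by the labels the controls also carried 1 disrupted copy. Both groups were untreated and were harvested on day 5 of growth in Matrigel. The labels do not say which libraries came from separate mice or cultures, so the spread between libraries may be technical.

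An MHC class I molecule is a heavy chain joined to beta-2 microglobulin and a short peptide, and it shows fragments of the cell's own proteins to T cells and natural killer cells at the cell surface. Peptides are cut by the proteasome, carried into the endoplasmic reticulum by the TAP transporter and loaded there with the help of chaperones. Nlrc5 raises transcription of class I genes without binding DNA itself, by joining RFX, CREB/ATF and NF-Y proteins at a conserved promoter module with S, X1, X2 and Y boxes. Class I promoters also hold sites for NF-kB and for interferon regulatory factors, and TNF and interferons are known to raise class I expression in many cell types.

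The classical chains H2-K1 and H2-D1 present peptides to CD8 T cells. H2-T23 encodes Qa-1, which displays leader peptides of other class I chains to natural killer cell receptors. H2-M3 presents peptides with an N-formyl group, as bacteria make them, and H2-Q4 is a nonclassical chain of the Q region. The promoters of these chains and of B2m are shown because the sequence they share, and where they differ, can be read beside the levels. RefSeq promoters on GRCm38.p6 were matched for 6 of the 7 members. The 180 bases before each annotated start are written 5′ to 3′ on the gene's strand, and for H2-K1, which has 2 annotated starts, the more downstream was used. Capitals mark an NF-kB type pattern (GGGGATT, any 1 base, CCC), an interferon response type pattern (TTTC, any 2 bases, TTTC, or the shorter TTTC, any 2 bases, TTC, or their reverse complements), and the 2 ends of a spaced pair of an X2 type core and an inverted CCAAT box (TGACG, then 20 bases, then ATTGG).
H2-K1, chr17:34000334-34000513, minus strand: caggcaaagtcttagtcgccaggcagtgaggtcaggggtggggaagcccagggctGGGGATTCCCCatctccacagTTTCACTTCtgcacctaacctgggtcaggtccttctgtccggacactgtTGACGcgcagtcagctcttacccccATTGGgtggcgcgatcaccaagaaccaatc
H2-D1, chr17:35262914-35263093, plus strand: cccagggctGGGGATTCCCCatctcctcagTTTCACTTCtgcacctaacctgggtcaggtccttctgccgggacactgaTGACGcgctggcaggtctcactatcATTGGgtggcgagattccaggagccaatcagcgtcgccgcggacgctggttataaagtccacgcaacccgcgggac
H2-Q4, chr17:35379437-35379616, plus strand: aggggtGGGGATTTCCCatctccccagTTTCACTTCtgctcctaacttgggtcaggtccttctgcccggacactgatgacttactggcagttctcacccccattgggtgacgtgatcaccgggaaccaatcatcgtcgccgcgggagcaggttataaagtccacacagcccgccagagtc
H2-M3, chr17:37270054-37270233, plus strand: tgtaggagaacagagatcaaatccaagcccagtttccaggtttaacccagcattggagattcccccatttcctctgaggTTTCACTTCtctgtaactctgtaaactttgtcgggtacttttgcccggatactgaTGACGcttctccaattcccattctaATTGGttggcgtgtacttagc
H2-T23, chr17:36032702-36032881, minus strand: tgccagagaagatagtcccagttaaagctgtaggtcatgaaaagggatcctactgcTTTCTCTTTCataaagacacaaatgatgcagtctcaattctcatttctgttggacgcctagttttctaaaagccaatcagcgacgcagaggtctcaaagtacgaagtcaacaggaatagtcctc
B2m, chr2:122147507-122147686, plus strand: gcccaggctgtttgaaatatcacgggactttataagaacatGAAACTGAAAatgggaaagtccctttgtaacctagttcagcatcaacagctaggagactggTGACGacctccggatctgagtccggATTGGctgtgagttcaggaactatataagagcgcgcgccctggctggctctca

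The promoters of H2-K1, H2-D1 and H2-Q4 held the NF-kB type pattern, which occurred in 18 of 27025 genes (0.0666%) when both strands of the same window were searched. The shorter interferon type pattern was found in H2-K1, H2-D1, H2-Q4 and H2-M3, against 5.15% of all genes. The longer one was found in H2-T23 and, on the reverse strand, in B2m, against 2.34% of all genes, and no member had both. The spaced pair lay in H2-K1, H2-D1, H2-M3 and B2m and in 23 genes in all (0.0851%). The NF-kB type pattern, the shorter interferon type pattern and the spaced pair occurred together in 2 of 27025 genes, H2-K1 and H2-D1. The plain CCAAT letters, part of which overlap the spaced pair, were in all 6 promoters and in 30.8% of genes. These spellings were chosen after the members' promoters had been seen, so the shares describe how rare the letters are and test nothing. A match is no evidence of binding, and a missing match says only that the letters are not in the window.

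**Figure D1:**
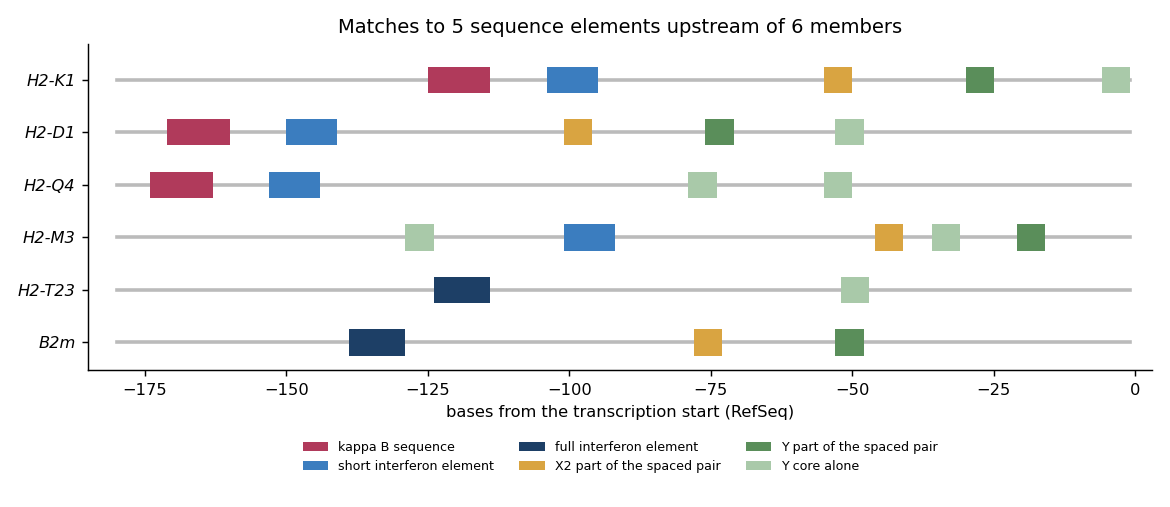
Positions of the sequence patterns in the 180 bases before the annotated start of 6 genes. The horizontal axis is the distance from the start in bases and each coloured bar is 1 match on either strand, with the ends of the spaced pair drawn separately as X2 and Y and other CCAAT letters as Y core alone. H2-K1 and H2-D1 carry 3 of the patterns in the same order, with the NF-kB type match 125 bases before the start in H2-K1 and 171 in H2-D1.

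Library totals were 6543013 to 9937008 expected counts in the knockout and 11890729 to 16458689 in the control group, so the knockout values rest on fewer reads. The libraries fell into sets with similar profiles, which put knockout 1 to 4 together, knockout 5 with knockout 6, control 1 to 5 together, and control 6 by itself. Spearman correlations across genes of log2 CPM (counts scaled to library size) were 0.989 to 0.998 within sets and 0.927 to 0.955 between sets of a genotype. Chi-square per degree of freedom between 2 libraries is near 1 where they differ by counting error alone. It was 1.38 to 9.83 within sets and 105 to 179 between sets of a genotype. The adjusted p-values and SDs below count 6 libraries a group, so they may overstate the number of separate samples. Control 6 correlated more closely with knockout 1 to 4 (0.969 to 0.976) than with the other controls (0.953 to 0.955). Log2 differences of the members and of the named pathway genes that passed are therefore also given without knockout 5, knockout 6 and control 6. Counts of the ribosomal precursor Rn45s were 0.351% to 1.19% of a control library, 1.63% to 2.1% of knockout 1 to 4 and 7.01% to 8.25% of knockout 5 and 6, so it too was higher in every knockout library. Its part in the group differences was not tested, beyond a fit that left its counts out. Tnfrsf1a, which encodes the deleted receptor, ran from 40.6 over a median of 44.99 to 46.1 CPM in the knockout and from 54.9 over 79.0 to 81.3 CPM in the control libraries. All 6 knockout libraries lay below all controls, and since the deposited counts are per gene, they do not show where in the gene the remaining reads lie. The genotypes thus rest on the labels.

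H2-K1 was the classical chain with the larger fitted log2 difference between the groups. It measured 42.2, 54.2 and 67.4 CPM (lowest, median and highest library) in the knockout and 142, 226 and 238 CPM in the control group. The highest knockout library stayed below the lowest control, which was control 6. Its fitted log2 difference, knockout minus control, was -1.99 (SE 0.15), a level 3.97-fold lower. H2-D1 ran from 82.6 over a median of 88.1 to 100.6 CPM in the knockout and from 208 over 310 to 330 CPM in the control group. The groups did not overlap, knockout 5 and 6 (82.6 and 86.3 CPM) lay close to the other knockout libraries, and the log2 difference was -1.74 (SE 0.11), or 3.34-fold lower.

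The nonclassical chains were also lower, by unequal amounts. H2-T23 ran from 11.4 over a median of 42.1 to 47.1 CPM in the knockout and from 100.4 over 125 to 134 CPM in the control group, a log2 difference of -1.86 (SE 0.31). Its knockout libraries were split, with 14.7 and 11.4 CPM in knockout 5 and 6 and 40.8 to 47.1 CPM in knockout 1 to 4. H2-Q4 had the widest log2 difference of the members, with 2.41, 3.57 and 4.36 CPM in the knockout and 9.48, 28.0 and 30.2 CPM in the control group. Its log2 difference was -2.85 (SE 0.26), a level 7.23-fold lower, and the lowest control was again control 6. H2-M3 ran from 4.88 over 7.34 to 8.86 CPM in the knockout and from 12.8 over 19.4 to 20.6 CPM in the control group, with a log2 difference of -1.40 (SE 0.16). In bulk RNA, fewer cells that express a gene and less of its RNA per cell cannot be told apart.

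B2m, the light chain shared by the heavy chains, had the smallest log2 difference of the members. It measured 199.8, 487 and 609 CPM in the knockout and 530, 686 and 700 CPM in the control group, a log2 difference of -0.67 (SE 0.26), or 1.60-fold lower. It was the member whose groups overlapped, since knockout 3 at 609 CPM lay above control 6 at 530 CPM. The lowest values were those of knockout 5 (205 CPM) and knockout 6 (199.8 CPM), and knockout 1 to 4 held 485 to 609 CPM.

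Nlrc5 was scarce in every library, with 1 to 13 counts in the knockout and 24 to 41 counts in the control libraries. It ran from 0.103 over 0.795 to 1.36 CPM in the knockout and from 1.96 over 2.39 to 3.01 CPM in the control group. The groups did not overlap, and the log2 difference was -1.70 (SE 0.40), the widest error among the members. Knockout 5 and 6 held 0.208 and 0.103 CPM, and knockout 1 to 4 held 0.633 to 1.36 CPM.

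With edgeR's quasi-likelihood test over all genes, all 7 members had an adjusted p under 0.05 and were lower in the knockout, where 43.0% of the 12146 tested genes passed in either direction and 21.6% as lower. In 6 of the 7 all knockout libraries lay below all controls, which held for 12.5% of tested genes. Both counts follow from how the members were chosen. B2m did not pass in 11 of 22 alternative fits, among them those without knockout 1, 2, 4, 5 or 6 or without control 1, 2, 3, 4 or 5, and the member count was then 6.

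**Figure D2:**
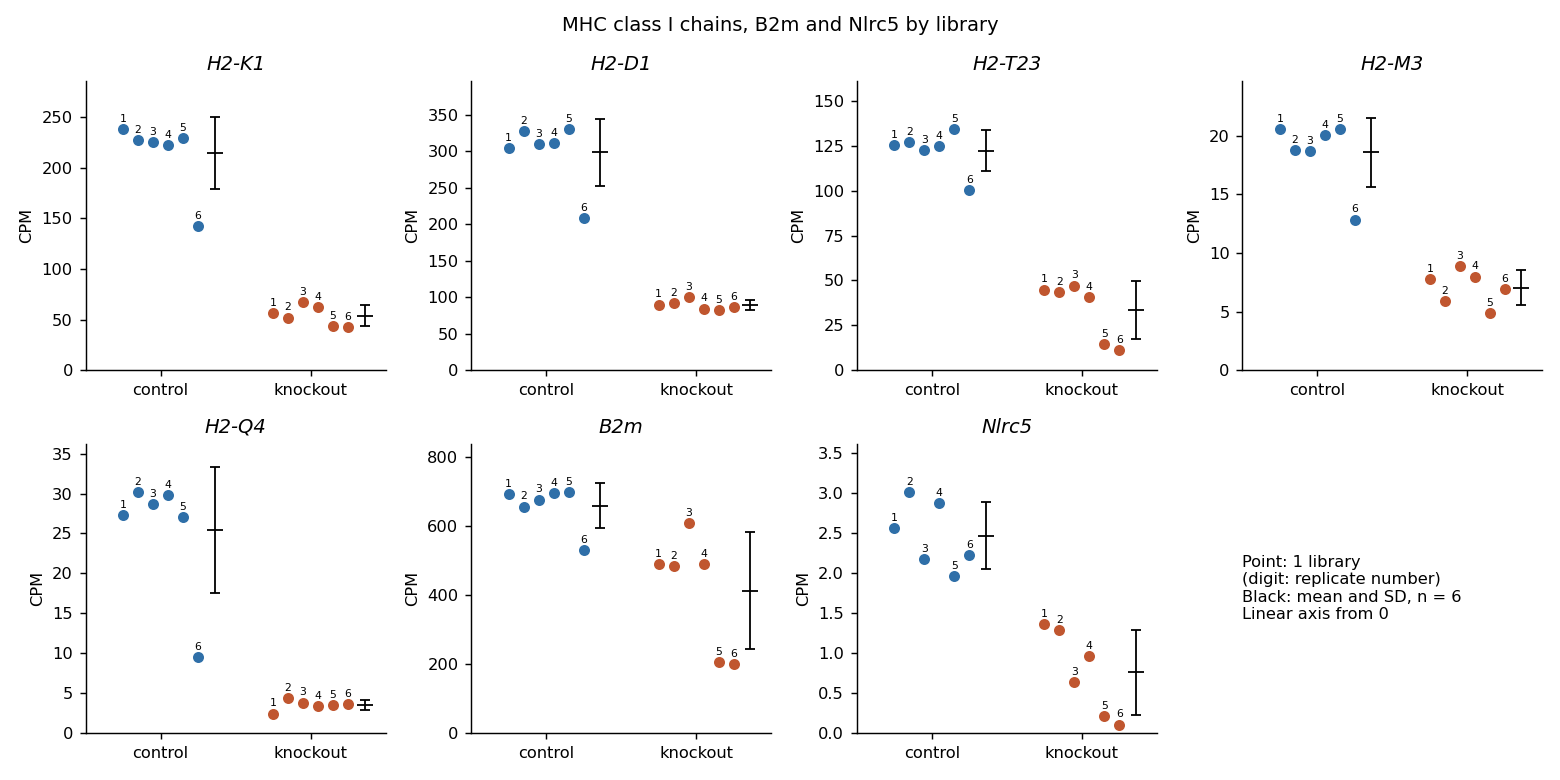
CPM of the 7 members in each of the 12 libraries, one panel a gene on linear axes from 0, with each library as a point. The digit beside a point is the replicate number, and the black marks are the mean and SD (n = 6). Knockout 5 and 6 lie below knockout 1 to 4 for H2-K1, H2-T23, B2m and Nlrc5, and control 6 is the lowest control for every member except Nlrc5.

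Within the knockout group, the members differed by unequal amounts between knockout 1 to 4 and knockout 5 and 6. Nlrc5 had the largest ratio per library size, 7.005, from 36 counts in knockout 1 to 4 together and 3 in knockout 5 and 6. Its exact 95% interval of 2.21 to 35.6 covers counting error only. The ratios of H2-T23 and B2m lie within that interval, so Nlrc5 cannot be ranked above them. The mean of knockout 1 to 4 over the mean of knockout 5 and 6 was 3.37 for H2-T23 and 2.56 for B2m, but 1.39 for H2-K1, 1.29 for H2-M3, 1.09 for H2-D1 and 0.977 for H2-Q4. These sets were read from the data, so the ratios carry no test. Without knockout 5 and 6 the log2 differences were -1.85 for H2-K1, -1.70 for H2-D1, -1.47 for H2-T23, -1.29 for H2-M3, -2.87 for H2-Q4, -0.35 for B2m and -1.18 for Nlrc5. Without control 6 as well they were -1.94, -1.79, -1.53, -1.37, -3.06, -0.40 and -1.20 in the same order. The differences of H2-K1, H2-D1, H2-M3 and H2-Q4 thus changed little with these libraries, and those of H2-T23, B2m and Nlrc5 shrank.

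Levels of different genes were compared per kilobase, as CPM divided by the length of the longest coding transcript in GENCODE M21. In the control group B2m stood highest at 766 ± 75.9 CPM per kilobase (SD, n = 6). H2-D1 (142 ± 21.6) and H2-K1 (132 ± 21.97) followed, and these neighbours did not differ beyond their spread. H2-T23 came next at 83.1 ± 7.79, then H2-Q4 at 14.2 ± 4.41 and H2-M3 at 12.9 ± 2.04, whose ranges overlapped, and Nlrc5 was last at 0.325 ± 0.0550. In the knockout group B2m (480 ± 197), H2-D1 (42.5 ± 3.11), H2-K1 (33.3 ± 6.20) and H2-T23 (22.9 ± 10.98) kept this order, with overlapping ranges for H2-D1 and H2-K1 and for H2-K1 and H2-T23. H2-M3 (4.90 ± 1.02) then lay above H2-Q4 (1.96 ± 0.357), and those ranges did not overlap.

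Summed over the 5 heavy chains, the knockout libraries held 149 to 228 CPM and the controls 473 to 742 CPM. The makeup of the sum differed most in knockout 5 and 6. H2-D1 made up 48.4% ± 6.28 (SD, n = 6) of it in the knockout and 44.0% ± 0.787 in the control group, and H2-K1 28.7% ± 1.72 and 31.5% ± 1.08, with overlapping groups for both. H2-T23 took 17.1% ± 6.59 against 18.2% ± 1.503, and its share was 20.5% to 22.3% in knockout 1 to 4 but 7.60% to 9.88% in knockout 5 and 6. In those 2 libraries the H2-D1 share was 55.3% to 57.3%, above its control range of 42.5% to 44.8%. The share of H2-Q4 was 1.92% ± 0.478 against 3.65% ± 0.835, and the groups overlapped there through control 6. H2-M3 took 3.77% ± 0.573 against 2.74% ± 0.114 and was higher in all 6 knockout libraries than in any control. Shares within a sum depend on one another, since a lower share of one chain raises those of the rest.

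Set against the light chain, the heavy chains were scarcer in the knockout libraries. The 5 chains together gave 51.3 ± 17.7 counts per 100 B2m counts (SD, n = 6) in the knockout and 103 ± 7.28 in the control group, and the groups did not overlap. This ratio does not depend on how the libraries were scaled, and it was chosen after the levels had been seen. It was 37.4 to 41.1 in knockout 1 to 4 and 72.8 and 75.3 in knockout 5 and 6, where B2m itself was lowest. H2-K1 gave 14.7 ± 5.06 counts per 100 of B2m against 32.3 ± 2.84, and H2-T23 7.85 ± 1.27 against 18.6 ± 0.638, without overlap in either case. H2-D1 overlapped, since knockout 5 and 6 (40.2 and 43.2) lay within the control range of 39.3 to 49.8. H2-M3 and H2-Q4 overlapped as well.

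**Figure D3:**
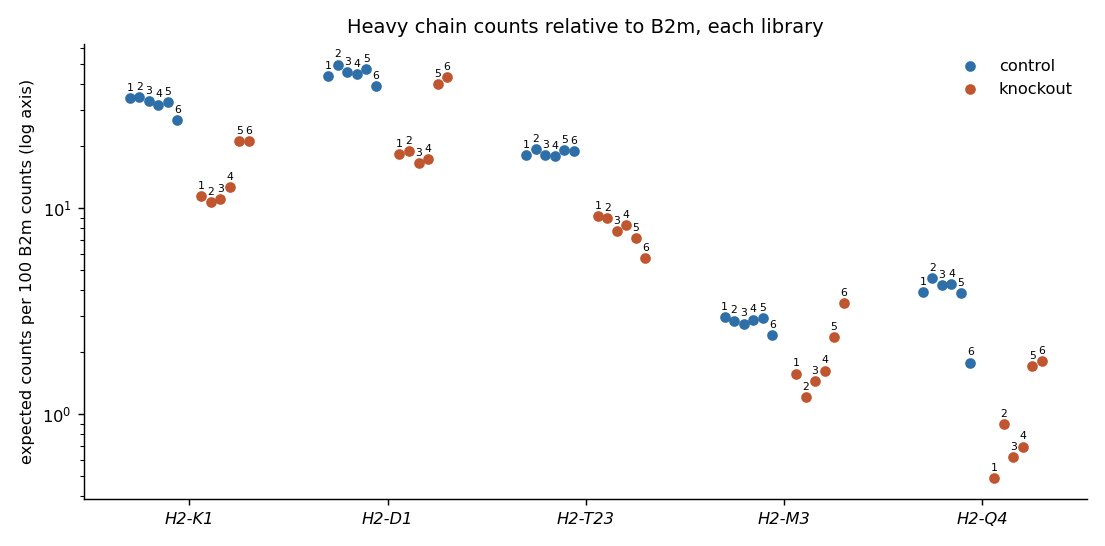
Counts of each heavy chain per 100 counts of B2m in the 12 libraries, on a log axis, with each library as a point and its replicate number beside it. All knockout points lie below all control points for H2-K1 and H2-T23, and knockout 5 and 6 reach the control range of 39.3 to 49.8 for H2-D1.

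The heavy chains descend from common ancestors, so reads can fit more than one of them, and the counting program then splits such reads by estimate. In GENCODE M21, 28.8% of the 50-base windows of H2-T23, 24.3% of those of H2-Q4, 14.3% of those of H2-D1 and 8.79% of those of H2-K1 also occurred in a transcript of another gene. For H2-M3 it was 0.576%, and for B2m and Nlrc5 none of the windows were shared. With windows of 100 bases the shares were 7.28% for H2-T23, 4.64% for H2-D1, 2.66% for H2-Q4 and 0.0% for H2-K1. Values with decimals, which expected counts take when reads are shared out between genes, occurred in all 12 libraries for H2-K1, H2-D1 and H2-T23, in 9 for H2-Q4 and in 1 for H2-M3, and in 0 for B2m and Nlrc5. The values of single heavy chains other than H2-M3 are therefore uncertain by the reads that were split, while reads shared among these 5 chains stay within their sum. Windows were also shared with genes outside the 5, and such reads can leave or enter the sum. Of 50-base windows, H2-T23 shared 12.9% with H2-T-ps, H2-Q4 7.68% with H2-Q6 and H2-D1 7.40% with H2-Q1. The largest partner of H2-K1 was H2-D1 (6.94%), within the 5. Summed over all listed class I chains the log2 difference was -1.67, beside -1.86 for the 5.

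Of 20 further chains listed, 3 passed the filter, and 2 of these fell, where 21.6% of all tested genes fell. H2-T9 fell from 65.6 ± 8.46 to 31.7 ± 8.33 CPM (SD, n = 6 each), a log2 difference of -1.05 (SE 0.18, edgeR adjusted p = 0.000553). H2-T10 fell from 2.18 ± 0.316 to 0.424 ± 0.293 CPM, a log2 difference of -2.39 (SE 0.31, edgeR adjusted p = 0.000107). H2-T22, which like H2-T10 encodes a ligand of some gamma delta T cells, measured 28.0 ± 15.2 CPM against 30.9 ± 7.28 CPM (edgeR adjusted p = 0.795). H2-T9 had no transcript of that name in GENCODE M21, and H2-T22 shares 44.7% of its 50-base windows with transcripts of other genes, 37.9% with H2-T10. Knockout 5 and 6 differed in single rows, with 14.3 and 3.78 CPM for H2-T22 and 16.5 and 29.9 CPM for H2-T9, but 31.3 and 33.9 CPM for H2-T9, H2-T10 and H2-T22 together. The sum was 31.3 to 76.7 CPM in the knockout and 94.7 to 103 CPM in the control libraries and did not overlap. Some rows held counts in few libraries, such as H2-L with 45.27 counts in control 6 and 0 in the other 11, and H2-Q9 with 16.17 counts in control 5 alone. In the fit without knockout 5, knockout 6 and control 6 the log2 differences were -0.84 for H2-T9 and -2.36 for H2-T10. H2-L, H2-Q9 and the sums were singled out after their values had been seen.

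**Figure D4:**
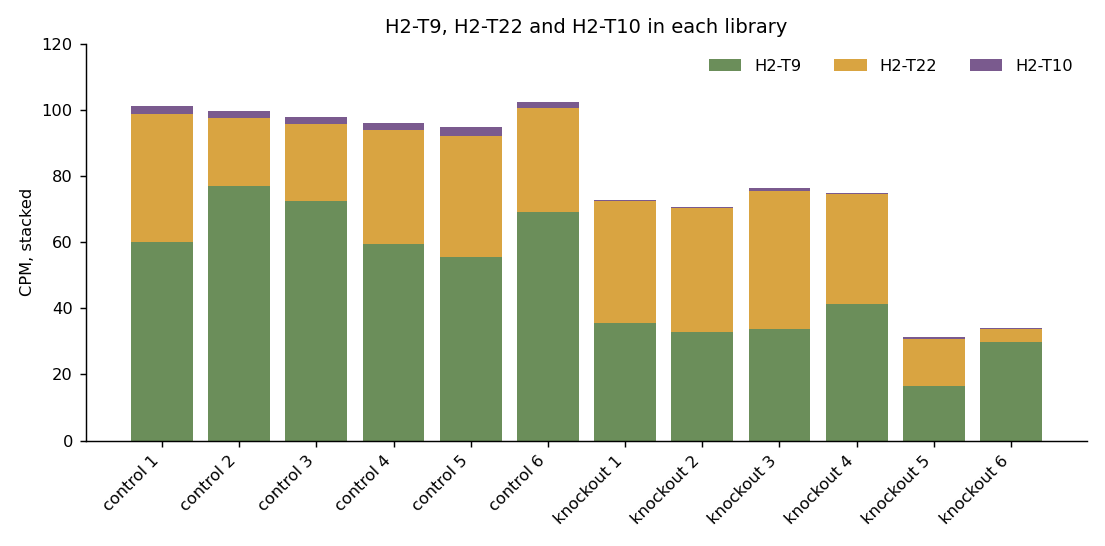
CPM of H2-T9, H2-T10 and H2-T22 stacked for each of the 12 libraries. The stacks reach 94.7 to 103 CPM in the controls and 31.3 to 76.7 CPM in the knockout libraries, and the split between H2-T9 and H2-T22 differs between knockout 5 and 6 although their stacks are alike in height.

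Among 8 lists of genes that act with or around class I molecules, 106 genes were listed, 103 were in the table and 69 were tested. Of these, 31 (44.9%) fell, 2 rose and 36 did not pass, where 21.6% of all tested genes fell and 21.4% rose. The lists were chosen with earlier results of these data known, so the contrast is a description and tests nothing. The same shares of all tested genes stand beside the counts of single lists and of markers below. Without knockout 5, knockout 6 and control 6 the counts were 45 lower and 10 higher. Calls rose over all tested genes as well, to 4508 lower and 4319 higher of 12382, from 2622 and 2597 of 12146.

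Peptide supply and loading was the list with the most falls, 11 of 12 tested, with a median log2 difference of -0.89 beside 0.02 over all tested genes. Psmb8, a catalytic subunit of the immunoproteasome, fell from 24.9 ± 6.18 to 4.85 ± 2.23 CPM (log2 difference -2.37, SE 0.32, edgeR adjusted p = 0.000121). Its level was 12.3 CPM in control 6 and 26.2 to 28.3 CPM in control 1 to 5. Knockout 5 and 6 held 1.97 and 2.38 CPM of it, and knockout 1 to 4 held 5.00 to 7.43 CPM. Psmb10, another such subunit, fell from 31.6 ± 6.18 to 13.7 ± 2.75 CPM (edgeR adjusted p = 0.000141), although control 6 at 19.0 CPM lay within the knockout range. Calr, a chaperone of the loading complex, fell from 4818 ± 1183 to 1444 ± 640 CPM (edgeR adjusted p = 0.00133). It was split in both groups, with 2414 CPM in control 6 and 5124 to 5403 CPM in control 1 to 5. In the knockout it held 598 and 641 CPM in knockout 5 and 6 and 1819 to 1955 CPM in knockout 1 to 4. Tapbpl, a peptide editor, fell from 16.5 ± 1.33 to 10.2 ± 1.73 CPM (edgeR adjusted p = 0.000653). Tap1, a subunit of the peptide transporter, fell from 41.4 ± 1.49 to 21.4 ± 8.93 CPM (log2 difference -0.96, SE 0.26, edgeR adjusted p = 0.00937), with 9.13 and 10.8 CPM in knockout 5 and 6. Tap2, the other transporter subunit, was the gene that did not pass (log2 difference -0.53, edgeR adjusted p = 0.0771). Without knockout 5, knockout 6 and control 6 the log2 differences were -2.15 for Psmb8, -1.24 for Psmb10, -1.51 for Calr, -0.53 for Tapbpl and -0.63 for Tap1.

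Of 16 tested transcription factors and cofactors of class I promoters, 1 fell, 1 rose and 14 did not pass. Irf1, an interferon regulatory factor that binds class I promoters, fell from 25.1 ± 2.21 to 12.4 ± 4.25 CPM (log2 difference -1.03, SE 0.21, edgeR adjusted p = 0.00211), and the groups did not overlap. Ezh2, a histone methyltransferase linked to class I silencing in tumors, rose from 14.3 ± 1.15 to 38.8 ± 28.4 CPM (log2 difference 1.45, SE 0.38, edgeR adjusted p = 0.00846). Its knockout libraries were split, with 75.7 and 75.0 CPM in knockout 5 and 6 and 19.6 to 21.0 CPM in knockout 1 to 4. The 3 libraries that stood apart bear on both, since without them the log2 difference was 0.49 for Ezh2 and -0.76 for Irf1. Rfx5, a subunit of the RFX complex, differed by a log2 value of -0.04 (SE 0.21, edgeR adjusted p = 0.898).

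In interferon signalling 6 of 14 tested genes fell and 0 rose. Socs3, a feedback inhibitor of cytokine signalling, fell from 39.3 ± 6.69 to 8.20 ± 2.34 CPM (edgeR adjusted p = 5.14e-06). Irf7, an interferon regulatory factor that is itself induced by interferon, fell from 125 ± 44.3 to 18.5 ± 11.4 CPM (edgeR adjusted p = 0.00109), with control 6 at 36.1 CPM. The type I interferon receptor chains Ifnar1 and Ifnar2 fell by 0.55 and 0.56 on the log2 scale (edgeR adjusted p = 0.000621 and 0.000512). With knockout 5, knockout 6 and control 6 left out, the log2 differences were -2.64 for Socs3, -2.47 for Irf7, -0.62 for Ifnar1 and -0.49 for Ifnar2.

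Class I-like proteins, several of which also pair with B2m, fell in 2 of 6 tested genes, where 21.6% of all tested genes fell. With 6 genes tested, this count does not set the list apart. Hfe, a regulator of iron balance, fell from 12.3 ± 2.70 to 3.48 ± 1.25 CPM (edgeR adjusted p = 0.000149). Fcgrt, the neonatal Fc receptor, fell from 97.7 ± 5.855 to 57.5 ± 25.3 CPM (edgeR adjusted p = 0.0373), a call lost without knockout 6 or without any one of control 1 to 5 (edgeR adjusted p of 0.0519 to 0.067), and under the replicate block. When knockout 5, knockout 6 and control 6 were left out, Hfe stood at a log2 difference of -1.67 and Fcgrt at -0.40. Cd1d1 and Mr1, which present lipids and vitamin metabolites to T cells, had log2 differences of -0.26 and -0.11 (edgeR adjusted p = 0.270 and 0.754). Procr differed by 0.07 and Mill2 by -0.99 (edgeR adjusted p = 0.561 and 0.114).

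Of 9 tested ligands seen by immune cells, 4 fell and 0 rose. The checkpoint ligand Cd274 fell from 12.6 ± 2.69 to 4.39 ± 1.00 CPM (edgeR adjusted p = 0.00011). Cd47, a signal against uptake by macrophages, fell from 107 ± 30.8 to 40.6 ± 7.38 CPM (edgeR adjusted p = 0.000388), with control 6 at 44.3 CPM among the knockout values. Clec2d, a ligand of an inhibitory natural killer cell receptor, fell from 60.2 ± 7.49 to 24.1 ± 11.9 CPM (edgeR adjusted p = 0.0041), with 10.06 and 9.31 CPM in knockout 5 and 6 and 27.5 to 38.9 CPM in knockout 1 to 4. Raet1d, of a family with closely similar copies, fell by 0.28 on the log2 scale (edgeR adjusted p = 0.0452), and this call was lost in 12 of 22 alternative fits, among them those without knockout 1, 2, 3 or 4 or control 1, 3, 4, 5 or 6 (edgeR adjusted p of 0.0547 to 0.0844). The log2 differences without knockout 5, knockout 6 and control 6 were -1.45 for Cd274 against -1.52 with them, -1.41 against -1.40 for Cd47, -1.03 against -1.33 for Clec2d and -0.30 against -0.28 for Raet1d.

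In traffic and turnover 4 of 6 tested genes fell and 1 rose. March9, a ubiquitin ligase that can remove class I molecules from the surface, fell from 14.2 ± 3.38 to 3.52 ± 1.15 CPM (edgeR adjusted p = 5.9e-05). The endoplasmic reticulum chaperone Hspa5 fell from 8954 ± 3440 to 1484 ± 328 CPM (edgeR adjusted p = 0.000137), with control 6 at 1978 CPM. Syvn1, a ubiquitin ligase of protein quality control there, fell from 195 ± 42.8 to 66.5 ± 22.1 CPM (edgeR adjusted p = 0.000334). Rab11a, of recycling endosomes, rose from 97.4 ± 3.37 to 120.5 ± 16.6 CPM (edgeR adjusted p = 0.0149). Without the 3 libraries that stood apart, March9 was at a log2 difference of -2.09, Hspa5 at -2.61, Syvn1 at -1.39 and Rab11a at 0.39. Of the MHC class II genes, 1 of 3 tested fell, H2-Ab1 from 3.34 ± 1.05 to 0.418 ± 0.164 CPM (edgeR adjusted p = 3.48e-05; log2 difference -3.01, and -2.90 without those libraries), and the class II transactivator Ciita had at most 1 count in any library.

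**Figure D5:**
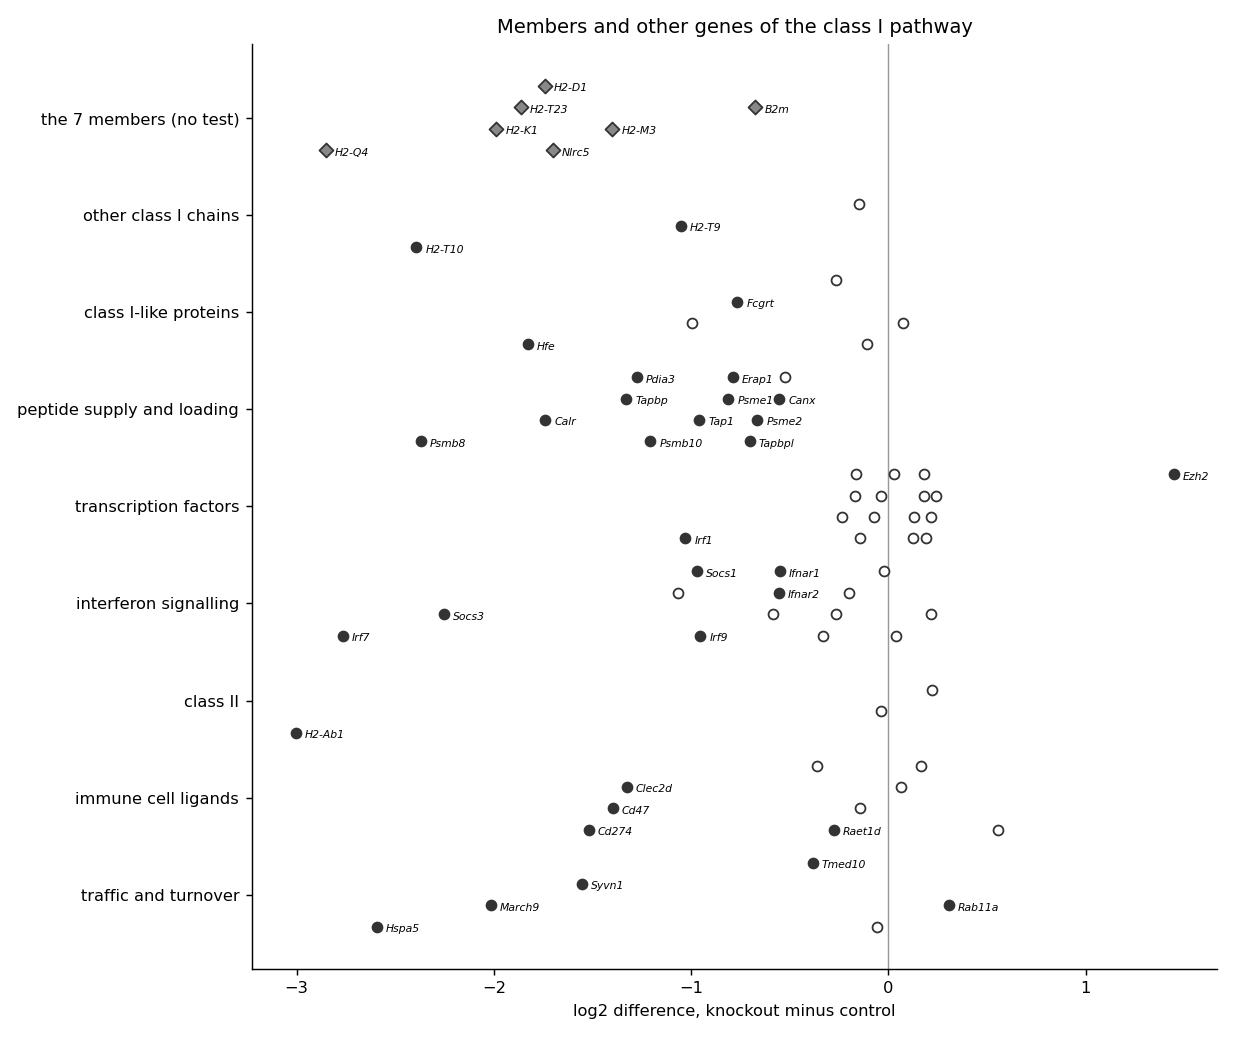
Log2 difference, knockout minus control, of the 7 members (diamonds, no test) and the 69 tested pathway genes by list (circles, filled where the edgeR adjusted p was under 0.05). Of the filled circles 31 lie below 0 and 2, Ezh2 and Rab11a, above it.

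The labelled cell type was checked against markers. Fibroblast and smooth muscle markers were abundant in both groups, and of 8 tested, 3 rose, 1 fell and 4 did not pass. Those that rose were Vim, Acta2 and Tagln, with log2 differences of 0.83, 1.47 and 1.30 (edgeR adjusted p = 0.000625, 0.00151 and 0.000134), and Pdgfra fell by 0.86 (edgeR adjusted p = 0.000279). Control 6 held 3095 CPM of Vim, 3278 of Acta2 and 1953 of Tagln, where control 1 to 5 held at most 2032, 1609 and 1190. Its Acta2 level lay above knockout 5 and 6 (2848 and 2788 CPM), so those groups overlapped. For Pdgfra it lay on the far side, at 254 CPM against 176 to 188 in control 1 to 5. Col1a1 did not pass as a group difference (edgeR adjusted p = 0.707), and its level was 1993 CPM in the lowest knockout library and 10467 to 11420 CPM in knockout 1 to 4. Markers of macrophages and other leukocytes, which carry much class I, were low but lower still in the knockout. Of 13 listed, 9 were tested, 6 fell and 0 rose, while Ptprc, Csf1r and Cd14 did not pass and Cd3e was at 0 in every library. Their summed level was 38.1 to 57.3 CPM in the knockout and 79.3 to 128 CPM in the control libraries. The largest part of this leukocyte sum was Lyz2, at 29.7 ± 3.69 CPM in the knockout and 60.9 ± 16.4 CPM in the control group (SD, n = 6). Lyz2 had counts with decimals in all 12 libraries. Summed epithelial markers were 5.34 to 6.64 CPM in the knockout and 0.731 to 8.33 CPM in the control libraries, with 0 of 1 tested gene past the threshold. Summed endothelial markers were 5.28 to 9.62 and 6.61 to 10.7 CPM, with 1 of 2 tested genes lower. The epithelial sums overlapped through control 6 alone, which held 8.33 CPM where control 1 to 5 held 0.731 to 1.74 CPM. Most of that sum was Krt20, with 7.38 CPM in control 6, 0.585 to 0.979 CPM in control 1 to 5 and 4.14 to 5.96 CPM in the knockout libraries. The endothelial sums overlapped with or without control 6. The part of these markers in the class I levels was not tested.

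The genes most like a member were those with the smallest root mean square distance in log2 CPM over the 12 libraries after each gene was centred. For H2-K1 these were Apobec1 (0.141), Sirpa (0.191), H2-D1 (0.199) and Gabra3 (0.214), where the median over 10392 genes was 1.07. For B2m they included Htatip2 (0.0967), Glmp (0.115) and Arfgap3 (0.117), with a median of 0.687. For Nlrc5 they were Oas1b (0.246), Podn (0.298), Col3a1 (0.340) and Tmem140 (0.344), with a median of 1.38 over 10393 genes. H2-D1 was the 1 member among these genes. The 12 libraries share their genotype and their sets, so the distances describe these libraries.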

How the data were processed

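RNA from 12 libraries was selected with oligo-dT and turned into strand-specific (dUTP) libraries, per the labels' protocols. The authors deposited expected counts per gene symbol, which per the submitters' processing notes involved Bowtie2 2.1.0 and RSEM 1.2.15. The same notes list a human build although the symbols are mouse, and which build was counted on is uncertain. Not given in the sources used here were the annotation, strand setting and read length. Between 96.5% and 97.3% of the values in a library were whole (tolerance 0.001), and all were rounded to whole numbers for the tests.

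Groups and replicate numbers came from the titles. Knockout was compared with control in edgeR 4.0.16 (R 4.3.3) by the quasi-likelihood test, with genotype as the only term, TMM scaling, filterByExpr (minimum count 10, minimum total 15) and Benjamini-Hochberg adjustment at 0.05. CPM used the scaled library sizes, and the depth given in the report sets the counting error of scarce genes such as Nlrc5. The members and the 8 pathway and 4 marker lists were chosen with earlier results of these data known. Named genes are the members, Tnfrsf1a, every tested class I or class I-like chain, up to 4 genes with the smallest adjusted p from each other pathway list, Irf1, Rfx5, Ciita and Tap1, and the 4 genes most like H2-K1, B2m and Nlrc5 among those with mean log2 CPM of at least 2, with predicted-gene symbols passed over; a few genes that the rule or the lists hold are not reported here. Tap2, Erap1, Tmed10, Vim, Acta2, Tagln, Pdgfra, Col1a1, Lyz2, Ptprc, Csf1r, Cd14 and Krt20 were added after their values were seen. Alternatives were other scalings, DESeq2 1.42.0, limma-voom (limma 3.58.1), other low-count filters, a replicate block, a fit without Rn45s, and fits without single libraries or without those that stood apart. Promoter letters and transcript windows were searched with Python 3.11.15 in the RefSeq (GRCm38.p6) and GENCODE M21 tables. Of 28 class I and related transcripts looked up, 24 were matched.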

Additional observations from a re-analysis of the deposited data

Results flagged for a closer look

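Control 6 stood apart from the other controls for 6 members. Its H2-K1 level was 142 CPM where the nearest other control had 222, and its H2-D1 level 208 CPM against 304. H2-T23 measured 100 CPM there against 122, H2-M3 12.8 against 18.7, H2-Q4 9.48 against 27.0, and B2m 530 against 657 CPM. In each case the gap to the nearest control, divided by the range of the 6 controls, was 0.65 to 0.846, above Dixon's 95% critical value for 6 samples. These were 6 of 14 groups screened, where chance gives about 1 in 20, and the 6 share 1 library, so they are not separate events. All 6 of these values lay on the side of the knockout libraries.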

How the results depend on the processing

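With 22 alternatives, 12 of them leaving out 1 library, no member changed direction. The median log2 difference of the 7 members was -1.998 to -1.47 over all of them and -1.96 to -1.68 when 1 library was left out. For the sum of the 5 heavy chains it was -1.96 to -1.79 with 1 library left out, and DESeq2's test and limma-voom gave no value for this sum. With 1 library left out, 6 to 7 members passed, a count that follows from how the members were chosen and is no support. In the same fits 2270 to 2977 genes were lower and 2148 to 3092 higher over all tested genes. Of the pathway genes, 27 to 35 were lower and 2 to 5 higher. The 5 higher pathway genes were found without control 6. Without knockout 5, knockout 6 and control 6, 4508 genes were lower and 4319 higher, and 10 pathway genes were higher. The cause was not tested. Of 33 pathway genes called, 29 kept their call in every alternative with a value and 0 reversed. Those lost at least once were Raet1d, Fcgrt, Erap1 (without knockout 5 or any one of control 1 to 5, edgeR adjusted p of 0.0513 to 0.0668) and Tmed10 (without control 5, edgeR adjusted p = 0.0515). B2m ranged from -0.81 to -0.35, the latter without knockout 5 and 6, and Nlrc5 from -2.04 to -1.18. The 12 most similar genes were the same 12 with no minimum level.

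Same-numbered knockout and control libraries did not deviate together (correlations of -0.344 to 0.158). The closest control of knockout 1 to 4 was control 6 in each case, so the deviations followed the library sets. These correlations therefore cannot show whether the numbers pair libraries, which the labels do not say. With the replicate block, 2107 genes were lower and 1867 higher, 29 and 2 pathway genes passed, and Fcgrt (edgeR adjusted p = 0.0504) and Raet1d (0.0558) lost their calls. All 7 members passed, which again follows from how they were chosen. The median of the 7 members was -1.85 with the block. Depth limits Nlrc5 most, with at most 13 counts in a knockout library.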
